A study of Mus musculus with 72 samples.

Results

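Cytosolic ribosomal protein genes were followed here in the hypothalamus of adult B6 mice. The family was taken by symbol from the protein-coding genes of the authors' tables (Rpl or Rps with a number, Rpsa, and Rplp0 to Rplp2, without S6 kinases and pseudogene names). That rule found 81 genes among the 21749 genes listed in all 10 count tables, or among 55401 genes listed in any of them. They comprise 46 genes of the large subunit, 32 of the small subunit and 3 of the stalk, and they lie on 19 chromosomes.

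The study deleted 5 conserved noncoding elements, E1 to E5, which its title links to hibernation, and compared each knockout (KO) with wild types (WT) of its own table. The deposited tables label these knockouts with the gene name Fto, and the labels do not give the positions of the elements. Mice were either fed or kept without food for 72 h with water, so each element has 4 groups: fed WT, fed KO, fasted WT and fasted KO. RNA-seq of total RNA gave 72 libraries in 20 groups. Groups hold 4 libraries, except 3 in all E3 groups, E1 fasted WT, E2 fasted WT, E2 fasted KO and E4 fasted KO. The labels give neither exact ages, how the deletions were made, nor whether a library is 1 animal, so p-values here measure the spread between libraries, which may be partly technical. Fed and fasted libraries share a sequencing batch only in E1 and in E3. In E2, E4 and E5 feeding and batch cannot be told apart, and fasting was tested only in E1 and E3. All 14 hypothalamic peptide and regulator markers chosen were measured well enough to be tested in the fasting comparisons, and the hypothalamus label had their sum between 200.3 and 2703 CPM (counts scaled to a library total of 1000000) in every library.

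Ribosomal proteins are the protein part of the ribosome, the machine that translates mRNA. The small subunit reads the message, the large subunit joins the amino acids, and the stalk proteins recruit the factors that drive each step. Because a ribosome needs nearly every one of them in equal number, their genes are among the most strongly and most evenly expressed of any cell. Their mRNAs typically begin with a terminal oligopyrimidine (TOP) tract, a C followed by a run of C and T bases in the DNA, through which the kinase mTOR and the protein LARP1 tune their translation and stability with nutrient supply.

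The start site was read because this tract is the feature that the family is known to share. Each window runs from 10 bases before the annotated start to 20 bases from it, 5′ to 3′ on the strand of the gene, from RefSeq on GRCm38.p6. Capitals mark the longest run of at least 5 C or T bases that begins with C within 3 bases of the annotated start. Rps6, the substrate of S6 kinase, lies at chr4:86857348-86857377 on the minus strand, and Rps18 and Rps27 of the small subunit at chr17:33955646-33955675 and chr3:90213629-90213658, both minus. Rpl7a and Rpl38 of the large subunit lie at chr2:26910797-26910826 and chr11:114668570-114668599, and the stalk gene Rplp2 at chr7:141447641-141447670, all on the plus strand. No such run stands near the annotated starts of the stalk gene Rplp0 at chr5:115559457-115559486 (plus), of Rpl4 at chr9:64173377-64173406 (plus) or of the paralog Rpl7l1 at chr17:46782637-46782666 (minus).
Rps6: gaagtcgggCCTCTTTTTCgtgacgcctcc
Rps18: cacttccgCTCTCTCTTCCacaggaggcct
Rps27: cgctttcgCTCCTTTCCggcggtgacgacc
Rpl7a: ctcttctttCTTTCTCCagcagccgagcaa
Rpl38: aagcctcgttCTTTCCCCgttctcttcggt
Rplp2: cagcgtcttCCTTTCgccgccggacgccgc
Rplp0: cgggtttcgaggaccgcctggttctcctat
Rpl4: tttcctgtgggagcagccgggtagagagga
Rpl7l1: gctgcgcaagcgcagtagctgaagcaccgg

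Of the 61 members with a RefSeq entry, 23 (37.7%) had such a run, against 3628 of 26964 other genes (13.5%), searched on the gene's strand alone. Among other genes tied to translation (elongation and initiation factors and known TOP mRNAs) 4 of 12 had it, while 3 of 22 mTOR pathway genes, 1 of 23 ribosome biogenesis genes and 9 of 69 mitochondrial ribosomal proteins did. The annotated start decides the window, so a match is a description of these letters.

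Members are short. Their median transcript length was 711.5 nt (367.5 to 3706 nt), against 2253 nt for the other protein-coding genes tested, while their median GC content of 51.5% lay near the 50.8% of those genes. Many also have processed copies elsewhere in the genome. In 48 of 81 members over 50% of the 50-nt stretches of the transcript also occur in transcripts of other genes, and the median was 56.6%. No stretch was shared in 3 members, among them the paralogs Rpl3l and Rpl39l. Levels of the other members are uncertain wherever the authors' counting could split reads between copies.

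Too few counts fell on 5 members for a test in any comparison. Rpl24, a protein at the subunit interface, had 6 counts over all 72 libraries and was at 0 in 68 of them. Rps10, at the mRNA entry side of the small subunit, had 44 counts and was at 0 in 50 libraries. Both share most of their sequence with another annotated gene: 81.7% of the Rpl24 stretches and 78.8% of those of Rps10 occur elsewhere. The paralogs Rpl10l, Rpl39l and Rpl36al had 1, 51 and 78 counts. Another 3 ribosomal protein genes, Rpl13, Rpl35 and Rpl35a, are absent from the authors' symbols and so are no members, and all 10 count tables list them at 0 in all 72 libraries. These low values cannot be read as absence of the mRNA, since both counting and copies could set them. In all, 76 members were tested in at least 1 of 17 comparisons and 74 in all of them. Rpl3l entered 8 comparisons.

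The family took between 0.202% and 1.10% of a library's counts, with total counts per library of 5517552 to 39999368. In E1 the fed wild types were at 0.633% ± 0.0158 (SD, n = 4) and the fasted wild types at 0.768% ± 0.0857 (SD, n = 3). E1 knockouts were at 0.587% ± 0.0257 fed and 0.815% ± 0.123 fasted (SD, n = 4 each). All fasted E1 libraries lay above all fed libraries of their genotype.

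The E3 wild types were at 0.521% ± 0.0680 when fed and 0.868% ± 0.0481 when fasted, and the E3 knockouts at 0.589% ± 0.0366 and 0.791% ± 0.0368 (SD, n = 3 each). Again no fed library reached a fasted one of its genotype. The other elements, where feeding coincides with batch, had fed group means of 0.337% to 0.599% and fasted group means of 0.656% to 0.991%.

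**Figure D1:**
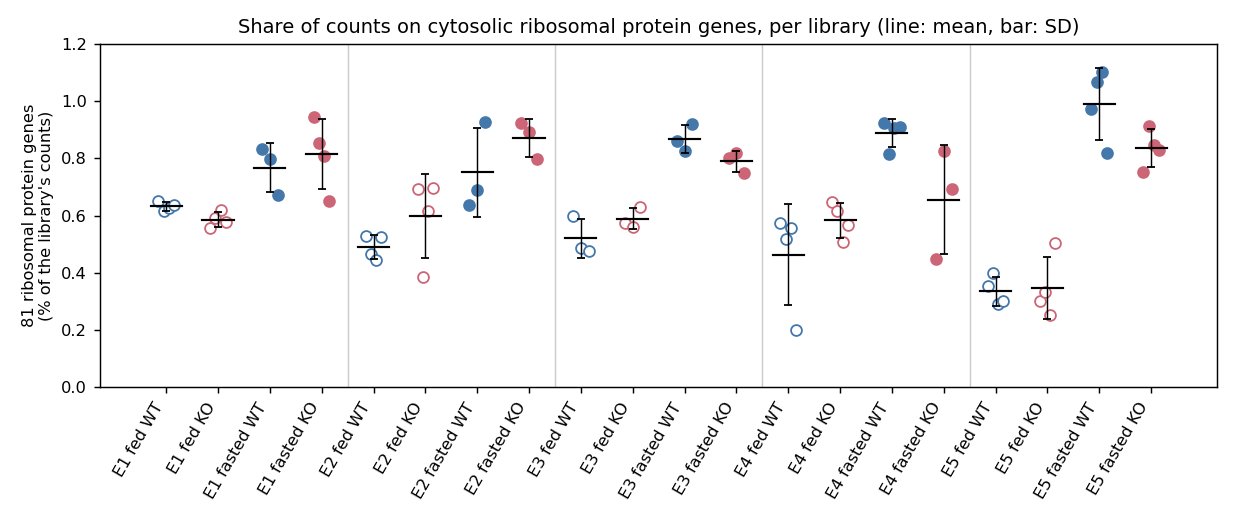
Share of all counts that fell on the 81 ribosomal protein genes (vertical axis, percent) in each of the 72 libraries, by element, feeding state and genotype (horizontal axis). Points are libraries (blue wild type, red knockout, open fed, filled fasted), lines are group means and bars are SD; the fed E4 wild type at 0.202% lies far below its group, and within E1 and E3 every fasted library lies above the fed ones of its genotype.

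In some libraries most members were low or high together within their group. The fed E4 wild type replicate 4, at 0.202% against 0.520% to 0.576% in the other 3, had the lowest level of its group for 74 of 74 members of mean log2 CPM of at least 1, with a median deviation of -1.11 on the log2 scale. The fed E2 knockout replicate 2 was lowest for 73 of 74, the fasted E1 knockout replicate 4 and the fasted E5 wild type replicate 4 for 74 of 74, and the fed E5 knockout replicate 4 was highest for 74 of 74. The fasted E4 knockout replicate 1 was lowest for 69 of 74. That library had 5517552 counts, and its 10 most abundant genes held 36.3% of them. Other libraries had members on both sides, such as the fasted E2 wild type replicate 3, lowest for 24 and highest for 44 of 74.

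In the fed E4 wild type replicate 4 other genes shifted by transcript length at the same time. A length slope was taken over protein-coding genes outside the family, as the change in log2 CPM, relative to the mean of the element's libraries, per doubling of transcript length. It was 0.161 in the fed E4 wild type replicate 4, so longer transcripts were high where the short members were low. The slope ran from 0.0122 to 0.0605 in fed E3 wild types and from -0.0460 to -0.0341 in fasted ones. In E1 wild types it ran from 0.000969 to 0.0120 fed and from -0.0172 to 0.00352 fasted, so these groups overlapped. The fasting comparisons are therefore also given with each library's length trend taken out.

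**Figure D2:**
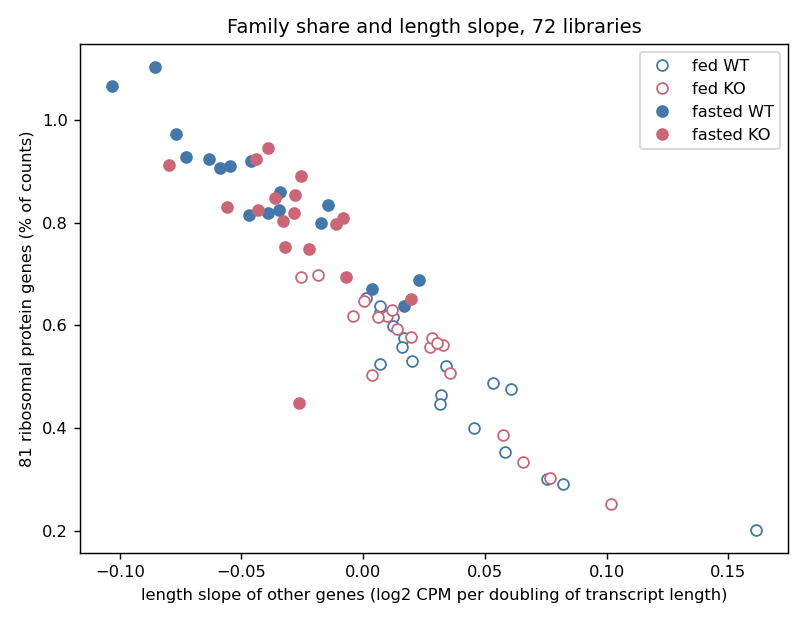
Share of counts on the 81 ribosomal protein genes (vertical axis, percent) against the length slope of other protein-coding genes (horizontal axis, log2 CPM per doubling of transcript length), 1 point per library, 72 libraries. Libraries with a low slope had a high share, and the library at a slope of 0.161 had the lowest share, 0.202%; slopes are relative to the mean of the element's libraries.

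Per length, Rpl3, a core protein near the catalytic centre of the large subunit, had the highest level, 364.5 ± 105 CPM per kb (mean of the 20 group means, SD over groups). It was followed by Rpl41, the smallest ribosomal protein, at 297 ± 123, by Rps24 at 295 ± 144 and by the stalk gene Rplp1 at 227 ± 78.8 CPM per kb. The spread over groups is larger than the steps between these neighbours. Rps6 stood at 193 CPM per kb. The lowest members were Rpl39l, Rps10, Rpl24 and Rpl10l, all with the few counts given above.

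Paralogs ran below their parents, with 1 exception. Rpl7l1 had 19.5 CPM per kb against 121 for Rpl7, and Rps27l had 10.8 against 149 for Rps27. Rpl3l, known as the striated muscle form, had 0.384 against 364.5 for Rpl3. Rpl36al had 0.0609 against 58.6 for Rpl36a, and Rpl39l, known from testis, 0.0497 against 32.7 for Rpl39. Only Rpl22l1, at 20.3, stood beside its parent Rpl22 at 15.8 CPM per kb. Within groups the SD of log2(CPM + 0.5) had a median of 0.31 over members. Rpl37a (0.45), Rps21 (0.44), Rpl22l1 (0.42) and Rplp1 (0.40) varied most, and Rpl7l1 least at 0.19.

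After the fast most ribosomal protein mRNAs made up a larger part of the hypothalamic mRNA of wild types. In E1 and E3 wild types together, with element as a covariate, 67 of 75 members tested rose and none fell by edgeR's quasi-likelihood test at an adjusted p under 0.05. Their log2 differences ran from 0.23 to 0.82, and the median over the 75 members was 0.49, a 1.40-fold change, against 0.01 for all genes tested. Of all 15159 genes 10.7% were called in either direction and 5.13% were called higher after the fast. In bulk tissue a change in cell makeup and a change in mRNA per cell cannot be told apart, and these are shares of the mRNA, not amounts.

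Both subunits took part. In the large subunit 37 of 42 members rose (median log2 0.53) and in the small subunit 28 of 30 (0.48), while in the stalk 2 of 3 rose (0.28). Members shorter than the median length of 711.5 nt had a median of 0.55 (33 of 36 called) and longer ones 0.44 (34 of 39). Those with over 50% of stretches shared with other genes were called in 43 of 46 cases (median 0.53) and the rest in 24 of 29 (0.48). By the start-site run, 18 of 22 members with it were called (0.48) and 31 of 34 without it (0.51), among them Rpl4 with a log2 difference of 0.53 in wild types. None of these subsets was tested against another.

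Rps14, a small subunit protein at the decoding platform, rose in both genotypes and had the smallest p in the knockouts. Its fed E1 wild types were at 107, 101, 99.9 and 100.3 CPM and the fasted ones at 155, 141 and 124 CPM. In E3 the fed wild types were at 38.6, 32.9 and 35.5 CPM and the fasted at 51.7, 47.7 and 56.1 CPM. Fed and fasted groups did not overlap in either element, and the log2 difference was 0.49 (SE 0.08, adjusted p = 0.00295). Rps18, whose start carries the run shown above, had the smallest p in wild types. It went from 43.5 to 50.02 CPM in the 4 fed libraries to 66.1, 66.4 and 58.3 CPM in E1 and from 26.3, 23.3 and 23.7 to 36.7, 41.2 and 38.6 CPM in E3 (log2 0.53, SE 0.08, adjusted p = 0.00208).

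Among the 8 members of smallest p were also Rpl17, Rpl10a, Rpl32 and Rps7, with log2 differences of 0.56 to 0.67. Rps27a, made as a fusion with ubiquitin, rose by 0.76 (adjusted p = 0.0217). Its E1 groups overlapped, at 47.7 to 59.1 fed and 53.8 to 68.6 CPM fasted, while the E3 ones were far apart, at 75.8, 59.5 and 57.9 against 183, 121 and 178 CPM.

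Rps6, whose phosphorylation is the usual readout of mTOR activity, rose by 0.41 (SE 0.10, adjusted p = 0.0250). Fed E1 wild types had 153, 137, 132 and 154 CPM and fasted ones 185, 170 and 143 CPM, so the E1 groups overlapped. In E3 all fasted wild types (270, 262 and 289 CPM) lay above all fed ones (210.0, 159.5 and 157 CPM). The most abundant member, Rpl3, rose by 0.42 (adjusted p = 0.00857), from 285 to 308 CPM fed to 331 to 434 CPM fasted in E1.

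Of the stalk genes, which form the arm that binds translation factors, 2 passed. Rplp0, which anchors the stalk, rose by 0.28 (SE 0.07, adjusted p = 0.0294) and Rplp1 by 0.56 (adjusted p = 0.0133). Rplp2 had 0.23 (adjusted p = 0.161) and did not pass. The remaining members outside the calls in wild types were Rpl8 and Rps9 (0.22 and 0.23), Rpl13a (0.22), Rpsa, the laminin receptor precursor, with 0.31 (adjusted p = 0.0590), and the 3 paralogs Rpl22l1 with 0.65 (adjusted p = 0.0502), Rpl7l1 with 0.09 (adjusted p = 0.374) and Rpl3l with -1.28 (SE 0.50, adjusted p = 0.107). Rpl7l1 stood at 24.1 to 26.8 CPM in fed and 27.0 to 29.3 CPM in fasted E1 wild types, and at 16.4 to 20.1 against 17.1 to 19.7 CPM in E3. The paralog Rps27l rose by 0.66 (adjusted p = 0.0442), and the parents Rps27 and Rpl39 by 0.78 and 0.82 (adjusted p = 0.0129 and 0.0133).

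**Figure D3:**
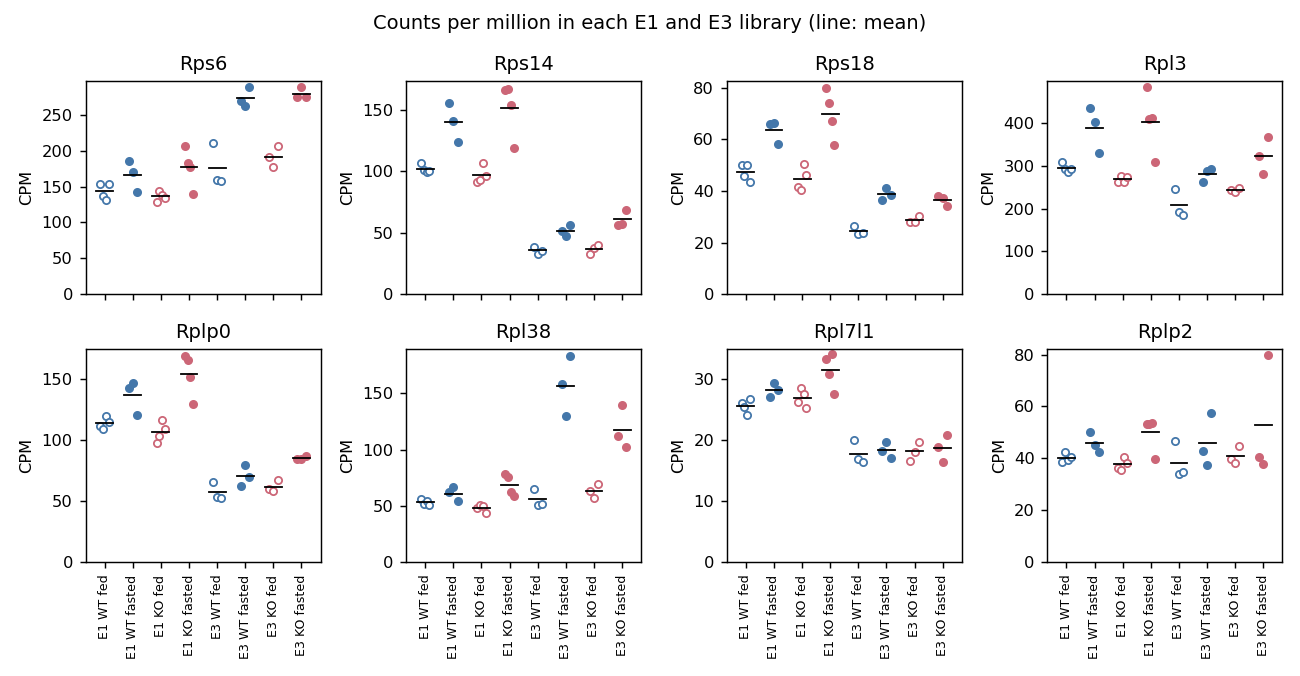
CPM (vertical axes, each starting at 0) of 8 ribosomal protein genes in every E1 and E3 library, by element, genotype and feeding state (horizontal axes); points are libraries (blue wild type, red knockout, open fed, filled fasted) and lines are group means. Rps14 and Rps18 show no overlap of fed and fasted libraries in any of the 4 pairs of groups, while the fed and fasted values of Rpl7l1 in E3 lie among each other.

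In the knockouts, which are other libraries of the same elements, 68 of 75 members rose after the fast and none fell. The median log2 difference was 0.43, a 1.35-fold change, against 0.01 for all genes, and the differences called ran from 0.28 to 0.68. The background was higher here: 19.2% of 15246 genes were called and 10.8% were called higher. Of the large subunit 38 of 42 rose (median 0.44), of the small subunit 27 of 30 (0.42) and of the stalk 3 of 3 (0.49). Shorter members had a median of 0.43 (31 of 36 called) and longer ones 0.43 (37 of 39). With the start-site run 19 of 22 were called, and without it 31 of 34.

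For Rps14 the knockouts gave a log2 difference of 0.67 (SE 0.07, adjusted p = 7.1e-05). Fed E1 knockouts had 91.2, 92.9, 107 and 96.4 CPM and fasted ones 166, 167, 154 and 119 CPM. In E3 the values were 33.2, 37.7 and 39.9 CPM fed and 56.7, 57.4 and 68.7 CPM fasted, again without overlap. Rpl36, a small protein of the large subunit, rose by 0.68 (SE 0.08, adjusted p = 0.000148), and Rplp0 by 0.49 (adjusted p = 0.000201). Rplp0 was at 97.6, 104, 117 and 109 CPM in fed and 169, 165, 152 and 129 CPM in fasted E1 knockouts, and at 59.5, 58.3 and 67.04 against 84.7, 84.6 and 86.5 CPM in E3. Rpl38, a large subunit protein known for its part in the translation of Hox mRNAs, rose by 0.67, from 43.8 to 50.4 CPM to 58.3 to 78.0 CPM in E1 knockouts. Rpl14, Rpl4 and Rpl10a were also among the 8 of smallest p, with log2 differences of 0.48 to 0.55. Rps6 rose by 0.44 (adjusted p = 0.00103), Rps27a by 0.44, Rpsa by 0.34 (adjusted p = 0.00823) and Rplp2 by 0.38 (adjusted p = 0.0471).

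In the knockouts 7 members missed the threshold. These were Rps29 with 0.27 (adjusted p = 0.114), Rps27 with 0.38 (adjusted p = 0.0503), Rpl39 with 0.25 (adjusted p = 0.286), Rpl13a with 0.13 and the paralogs Rps27l with 0.14 (adjusted p = 0.679), Rpl7l1 with 0.14 (adjusted p = 0.167) and Rpl3l with 0.34. The wild type and knockout calls shared 63 genes, which is 94.0% of the wild type calls and 92.6% of the knockout calls. With 67 and 68 calls among the same 75 members, at least 60 had to be shared, so this overlap was nearly fixed by the counts. The 2 comparisons share no library. Rpl7l1, Rpl13a and Rpl3l were outside the calls in both. Their mean levels over the groups were 25.6, 5.58 and 0.397 CPM, so Rpl13a and Rpl3l were among the low members.

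**Figure D4:**
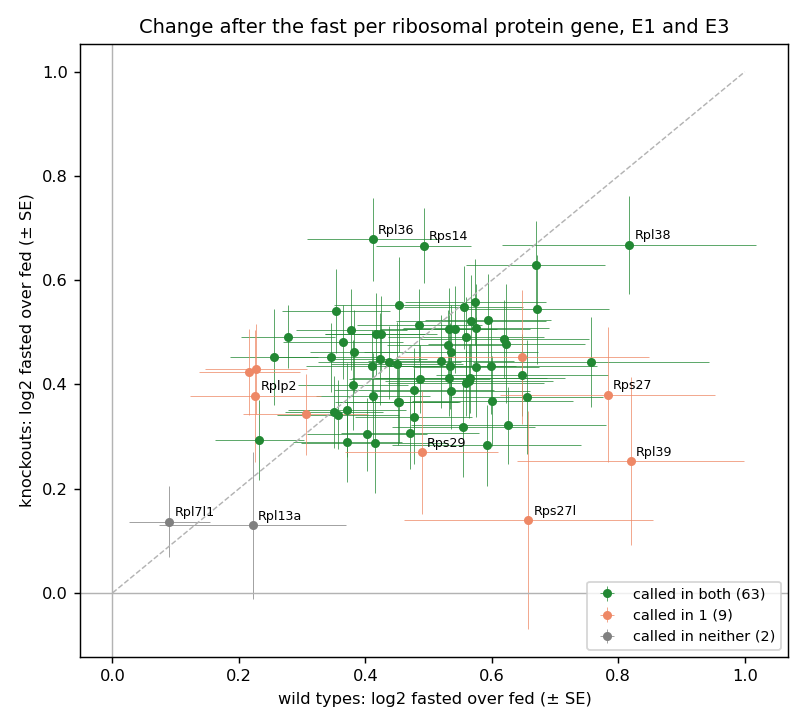
Log2 difference of fasted over fed libraries of E1 and E3 in wild types (horizontal axis) and in knockouts (vertical axis), 1 point per ribosomal protein gene with SE as bars; Rpl3l is left out of the plot. All 74 points lie above 0 on both axes, the medians are 0.49 in wild types and 0.43 in knockouts, and Rpl7l1 (0.09 and 0.14) lies near 0 on both.

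Each element on its own gave a part of this picture. In E3 wild types alone 66 members rose (11.5% of all genes were called higher) with a median of 0.78, and in E1 wild types alone 6 rose (2.3% of all genes) with a median of 0.24: Rps14, Rps18, Rpl10a, Rpl7a, Rpl3 and Rpl32. Among knockouts the order was the other way. In E1 alone 70 rose (18.3% of all genes, median 0.46) and in E3 alone 8 rose (0.491%, median 0.38), among them Rpl11, Rps14, Rpl18, Rpl10a, Rpl38 and Rps3. In wild types 72 of 74 members had the larger difference in E3, and in knockouts 28 of 74 did. The difference between elements was not tested, and E3 also differs from the others in its batch and in a marker of sex: Ddx3y, a Y-linked gene, was at 69.8 to 136 CPM in E3 and at most at 0.298 CPM elsewhere.

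Fasted libraries lay wholly above fed ones for 35 of 75 members in E1 wild types, 43 in E1 knockouts, 67 in E3 wild types and 51 in E3 knockouts, and wholly below for 1 in E3 wild types. Among all genes tested, 13.5%, 15.2%, 16.3% and 11.9% lay wholly above in the same 4 pairs of groups. Single libraries carried part of the count. Without the fed E3 wild type replicate 3 or 2 the wild type call covered 42 or 43 members, while 2.03% or 2.11% of all genes were called higher in those fits. With the length trend of each library taken out, 62 members rose in wild types (4.48% of all genes, median 0.44) and 63 in knockouts (9.34%, median 0.37). Without libraries that hold transcripts of other tissues, 53 rose in wild types (2.98%) and 70 in knockouts (11.4%); in wild types this removes the fasted E3 replicate 1, whose choroid plexus markers summed to 426 CPM.

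Ribosomal protein genes that the symbol rule does not cover gave like values. Fau, a small subunit protein made as a ubiquitin-like fusion, rose by 0.48 in wild types (adjusted p = 0.0128) and 0.51 in knockouts (adjusted p = 0.000382). Rack1, a scaffold on the small subunit, rose by 0.36 (adjusted p = 0.0201) and 0.37 (adjusted p = 0.00252). Of 18 other TOP and translation factor genes 9 rose in wild types and 11 in knockouts, beside 5.13% and 10.8% of all genes. None fell, and the medians were 0.26 and 0.25. Examples were the elongation factor Eef1a1 with 0.43 and the nascent chain factor Btf3 with 0.55 in wild types, and Eef2 with 0.40 and Eef1b2 with 0.48 in knockouts.

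Ribosome biogenesis genes, which make and process ribosomal RNA, had medians of 0.09 and 0.08. In wild types 3 of 28 rose, among them Nhp2 (0.43) and Nop56 (0.28), and in knockouts 6 of 28, among them Polr1c (0.37). Mitochondrial ribosomal proteins, whose ribosomes serve the mitochondrial genome, had medians of 0.13 and 0.12, with 7 of 72 higher in wild types, and 14 higher and 1 lower in knockouts. Mrpl41 rose by 0.65 in wild types and 0.51 in knockouts. Beside both lists, 5.13% of all genes were called higher in wild types and 10.8% in knockouts.

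In the mTOR pathway 2 of 25 genes rose and 1 fell in wild types, and 4 rose and 1 fell in knockouts. The medians were 0.09 and 0.01. Of all genes, 10.7% were called in either direction in wild types and 19.2% in knockouts, and the pathway's counts lie near these shares. Ddit4, an inhibitor of mTOR complex 1 induced by energy stress, rose by 0.64 (adjusted p = 0.00387) and 1.10 (adjusted p = 2.99e-06). Rraga, a GTPase of the amino acid branch, rose by 0.33 and 0.28. Rptor, the scaffold of mTOR complex 1, fell by 0.36 and 0.25. The hunger peptide Npy rose by 1.62 and 0.94, and Pomc, the precursor of a satiety peptide, fell by 0.94 in both.

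Some markers of other cells were called in the same comparisons. Of all genes tested there, 10.7% were called in either direction in wild types and 19.2% in knockouts. The marker counts below were not tested against these shares. Red blood cell markers fell in 4 of 4 tested genes in wild types (median log2 -2.07) and in 3 of 4 in knockouts. Their summed level in E1 was 440 to 1038 CPM in fed and 113 to 431 CPM in fasted libraries. In E3 it was 0.788 to 32.8 and 0.815 to 5.61 CPM. Among thalamus markers 1 of 6 rose in wild types and 4 of 6 in knockouts, among oligodendrocyte markers 0 of 7 and 3 of 7, and among neuron markers 1 of 8 and 2 of 8. Of the 6 endothelial markers chosen only Flt1 was called, and it fell in both. Of the 9 liver markers only Apoa1 was called, and it rose by 1.14 and 1.26. Among 6 astrocyte markers Slc1a3 rose in wild types (0.30) and Gja1 in knockouts (0.31). Among 6 microglia markers C1qb rose in knockouts (0.28). Choroid plexus markers summed to 24.7 to 582 CPM in fed and 41.1 to 692 CPM in fasted E3 libraries. Of the 9 pituitary markers chosen only Prl was called. It fell by 6.65 and 4.89, from sums of all pituitary markers that reached at most 17.8 CPM in E1. The part of these markers in the rise of the ribosomal protein genes was not tested.

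For the element deletions, no member was called in any of the 10 comparisons of knockout and wild type by edgeR at an adjusted p under 0.05, against a background of 0% of genes called in each. The authors' deposited edgeR tables, which cover 8 of the 10 comparisons and list 78 to 80 members each, gave 0 members under an adjusted p of 0.05, beside 1 to 43 genes (0.00547% to 0.238% of those listed). The values below are therefore descriptions. The median over all genes lay between -0.03 and 0.02 in these comparisons. That over the members ran from -0.26 to 0.36, and its sign differed between elements and feeding states.

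In fed E1 the median over members was -0.11 on the log2 scale, with 72 of 75 below 0 and 28 at an unadjusted edgeR p under 0.05 (715 of 14734 genes reached that). Rpl34, of the large subunit, had the smallest p. It was at 44.5, 40.5, 46.4 and 44.2 CPM in wild types and 35.5, 36.9, 37.6 and 37.7 CPM in knockouts, which do not overlap (log2 -0.26, SE 0.07, adjusted p = 0.953). Fasted E1 had a median of 0.08 with 0 members at p under 0.05 (583 genes), and leaving out single libraries moved the median between 0.0075 and 0.18. Rpl7l1 was the member of smallest p there, with 0.17 (adjusted p = 0.954).

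In E2 most members had higher values in knockouts in both states, and none passed the test. Transcripts of other tissues came with these groups: fat markers summed to 8860 CPM in the fed knockout replicate 3, and pituitary markers to 1271 to 11670 CPM in the fasted wild types against 1.27 to 27.4 CPM in the fasted knockouts. Without that fed knockout the median was 0.32 with 14 members at an unadjusted edgeR p under 0.05 (577 genes). Without the fasted wild type replicate 2, which held the most pituitary transcripts, it was 0.28 with 26 members (882 genes). All fasted wild types held them, so their part there was not tested further. Fed E2 had a median of 0.36 with 74 of 75 members above 0 and 10 at p under 0.05 (656 genes), led by Rpl7, a large subunit protein, with 0.54 (SE 0.19, adjusted p = 0.866). Its knockout values of 127, 76.1, 148 and 136 CPM show replicate 2 among the wild types (96.0, 84.2, 75.3 and 84.6 CPM). Fasted E2 had a median of 0.26, 25 of 76 members at p under 0.05 (1512 genes) and Rpl38 in front, at 58.7, 59.4 and 57.5 CPM in wild types and 91.1, 82.8 and 80.9 CPM in knockouts (log2 0.51, SE 0.09, adjusted p = 0.660). Rpl38 thus has no overlap. The fasted wild type replicate 3 stood apart, with a family share of 0.929% against 0.638% and 0.689% and a length slope of -0.0727 against 0.0167 and 0.0227. Without it 27 members were called higher in knockouts, beside 2.33% of all genes, with a median of 0.37. DESeq2 called 1 member in fasted E2, beside 0.538% of all genes.

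In E3 the median was 0.16 fed, with 73 of 74 members above 0 and 17 at p under 0.05 (1422 genes), and -0.21 fasted, with 60 of 74 below 0 and 27 at p under 0.05 (2546 genes). Rps29, a zinc-binding small subunit protein, led the fed comparison with 0.39 (SE 0.10, adjusted p = 0.341). Without the fed knockout replicate 3, at 582 CPM of choroid plexus markers, the fed median was 0.097 with 3 members at p under 0.05 by edgeR (1534 genes). Rps27a led the fasted one, at 183, 121 and 178 CPM in wild types against 100.2, 105 and 94.3 CPM in knockouts (log2 -0.76, SE 0.18, adjusted p = 0.161). Those groups do not overlap. With both feeding states in one model, 6 members were lower in fasted knockouts, beside 2.93% of all genes: Rpl26, Rps27a, Rpl30, Rpl36a, Rps29 and Rpl37, while the comparison of the fasted groups alone called none by edgeR and 10 by DESeq2, beside 3.69% of all genes. In fasted E3 wild types the sum of choroid plexus markers was 44.1 to 426 CPM and in the knockouts 41.1 to 692 CPM, and its part was not tested.

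In fed E4 the median of 0.33, with 74 of 74 members above 0 and 0 at p under 0.05 (964 genes), rests on the wild type replicate 4 described above. Without it the median was 0.095. Rps27l had the smallest p there, with 0.53 (SE 0.27, adjusted p = 0.787). Rpl39 shows the low library: 19.8, 18.4, 16.1 and 6.42 CPM in wild types and 24.2, 21.4, 16.9 and 20.3 CPM in knockouts. Fasted E4 had a median of -0.25 with 70 of 75 below 0 and 36 at p under 0.05 (1684 genes). Rps21, a small subunit protein, had 69.0, 64.4, 67.6 and 77.2 CPM in wild types and 19.6, 59.8 and 46.6 CPM in knockouts (log2 -0.53, SE 0.15, adjusted p = 0.496). The lowest of these is the knockout replicate 1 with the low total count. Without the knockout replicate 3, at 6409 CPM of pituitary markers, the median was -0.19 with 25 members at p under 0.05 by edgeR (1026 genes).

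In fed E5 the median was 0.04, with 0 members at an unadjusted edgeR p under 0.05, and it took either sign as single libraries were left out (-0.15 to 0.15). Fasted E5 had a median of -0.26, and all 74 members were below 0, with 50 at p under 0.05 (1360 genes). Rps27 had 104, 104, 115 and 95.3 CPM in wild types and 76.0, 79.8, 83.2 and 75.3 CPM in knockouts, without overlap (log2 -0.42, SE 0.07, adjusted p = 0.667). Rps28, another small protein of the small subunit, followed with -0.44 (adjusted p = 0.667). DESeq2 called 4 members lower in the fasted E5 knockouts, Rps27, Rps28, Rpl37 and Rps29, beside 0.0916% of all genes. Pituitary markers summed to 1.74 to 4539 CPM in the fasted E5 wild types and 0.7096 to 18890 CPM in the knockouts, and choroid plexus markers reached 3210 CPM in 1 wild type. Without the 3 libraries with such transcripts the median was -0.20 and 10 members had an unadjusted edgeR p under 0.05 (639 genes).

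**Figure D5:**
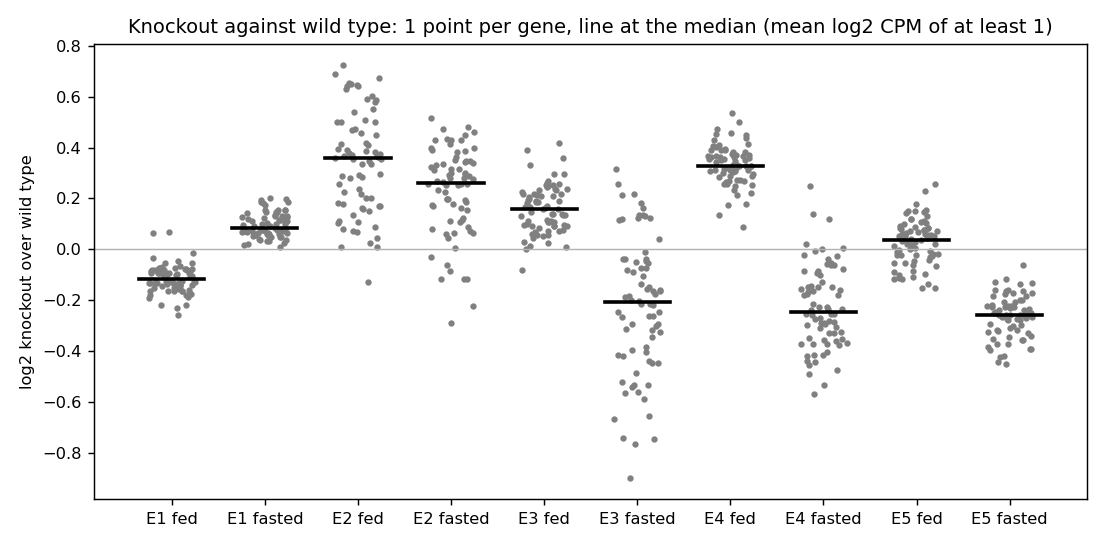
Log2 difference of knockout over wild type (vertical axis) for each ribosomal protein gene of mean log2 CPM of at least 1 (points) and their median (line) in the 10 comparisons (horizontal axis, element and feeding state). In most comparisons most members lie on 1 side of 0, but their spread differs. In fasted E3 they run from -0.90 (Rpl39) to 0.32 (Rpl18). No point passed the test, and the medians run from -0.26 in fasted E5 to 0.36 in fed E2.

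Whether the deletion effect depended on feeding was tested as an interaction, the knockout difference in fasted minus that in fed libraries. In E2, E4 and E5 these libraries also differ in batch. There a knockout difference that changes with feeding cannot be told apart from one that changes with batch. The interaction called 0% of genes in E1, E2, E4 and E5 and 1.34% of 15033 genes in E3, 73 of them higher and 129 lower. In E3 the median over members was -0.38, with 63 of 74 below 0, and 1 member passed, a share near the 1.34% of all genes. DESeq2 called 15 members, beside 7.3% of all genes. Rps29 had an interaction of -0.97 (SE 0.20, adjusted p = 0.0397). In wild types it went from 44.7, 36.2 and 34.0 CPM fed to 65.3, 59.9 and 79.2 CPM fasted, and in knockouts from 49.8, 46.2 and 56.8 CPM fed to 53.2, 47.9 and 41.6 CPM fasted. So fed and fasted wild types did not overlap, and the knockouts did. The call passed in 7 of 18 other settings, leave-one-library-out fits included, with adjusted p from 0.000924 to 0.124 and log2 values of -1.08 to -0.84. Rpl37 (-0.77, adjusted p = 0.0604), Rps27a (-0.98, adjusted p = 0.0639) and Rpl30 (-0.83, adjusted p = 0.0669) followed and missed the threshold.

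In the other elements the interaction medians were 0.21 in E1, -0.09 in E2, -0.59 in E4 and -0.32 in E5. Rps29 had 0.38 in E1 (adjusted p = 0.596), and Rpl34 had the smallest p there, with 0.41. In E4 every one of 75 members was below 0, with Rpl39 at -1.02 (adjusted p = 0.445), and without the fed wild type replicate 4 the median was -0.35. In E5 73 members were below 0, with Rps27 at -0.45 (adjusted p = 0.797), and without the fed knockout replicate 4 the median was -0.12. In E2 Rplp0 had the smallest p, with -0.71 (adjusted p = 0.769).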

How the data were processed

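The authors deposited raw counts of reads per gene, 1 table per element and feeding state, with hypothalamus libraries as columns. The submitters' processing notes name HISAT2, Bowtie2, edgeR and the mm10 genome. The counting tool, its strand setting and its handling of multiply mapped reads are not given in the sources used here. The authors also deposited 8 edgeR tables with log2 fold changes, p-values and adjusted p-values, per the file headers. Their 58 columns of per-sample values were not used. In the E3 tables the column names "ctrl" and "3CR" were read as fed and fasted, after the state each table is named for.

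The members and all gene lists were chosen with earlier results of these data known. The test was the quasi-likelihood F test of edgeR 4.0.16 (R 4.3.3) with TMM scaling, on genes kept by filterByExpr (min.count 10, min.total.count 15). Benjamini-Hochberg adjustment ran over all genes tested, with calls at an adjusted p under 0.05. Knockouts were compared with wild types of the same table. Fasting was compared in E1 and E3 with element as a covariate, and interactions within an element. The SE is the log2 value divided by the square root of F. The script was tested on simulated data. No 2 libraries of a group agreed within sampling noise (lowest chi-square per degree of freedom 2.98).

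Named members were up to 8 called per direction by p, or otherwise the 2 of smallest p, plus stalk proteins, Rps6, Rps27a, Rpsa, paralogs with their parents, and the extremes of level and spread. Members that were singled out beyond this rule, such as Rpl36a, Rpl30 and Rpl26, were chosen after their values were seen. Values of some members that the rule names are not reported here. Alternatives were DESeq2 1.42.0, RLE size factors, no filter, a length trend taken out, both feeding states in one model, a replicate block, single elements, other-tissue libraries left out and each library left out. A GC trend was added after seeing the data.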

Additional observations from a re-analysis of the deposited data

Results flagged for a closer look

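In the fed E4 wild types, replicate 4 lay far from the other 3 libraries of its group, with 0.202% of its counts on ribosomal protein genes against 0.520% to 0.576%. In the fasted E4 wild types, replicate 2 lay apart in the same way, with 0.816% against 0.907% to 0.924%. Groups of 4 were examined for this, 12 in all, and chance marks about 1 in 20 groups. The length slope of other genes was 0.161 in the first library and -0.0469 in the second, and its part in these shares was not tested.

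For Rps29 in E3 the knockout difference itself differed between feeding states, by -0.97 on the log2 scale in the edgeR interaction test (adjusted p = 0.0397). The call passed in 7 of 18 other settings, with adjusted p up to 0.124. It was 1 of 74 members, beside 1.34% of all genes. It was higher in all 3 fed knockouts than in any fed wild type and lower in all 3 fasted knockouts than in any fasted wild type.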

How the results depend on the processing

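Where members were called, 43 of 63 alternative counts stayed within 1.5 times. Where none was called, 203 of 209 stayed at 0, which says little about stability. Members called in fasted wild types numbered 6 in E1 alone (median log2 0.24, against 0.78 in E3 alone) and 42 to 71 with single libraries left out, and members called in fasted knockouts numbered 8 in E3 alone. The GC trend, chosen after seeing the data, left 67 and 68 members called. DESeq2 called 1 member in fasted E2, 10 in fasted E3, 4 in fasted E5 and 15 in the E3 interaction. Both feeding states in one model gave 6 in fasted E3, and no filter gave 1 in fasted E4. Single libraries left out gave 0 to 27 in fasted E2 and 0 to 17 in the E3 interaction, which had 2 with the length trend taken out and 0 without libraries with other tissues. For the GC trend, no filter and the length trend in the E3 interaction, the share of all genes called is not reported here. The same holds for the upper counts of 71 and 17. Those counts show how calls of members changed, not whether members stood out from all genes. The cause of these changes was not tested. The family share of fed E1 wild types was 0.650% without the 10 most abundant genes. Over genes listed in all tables it was 0.953% in fasted E2 knockouts, 0.952% in fasted E4 wild types and 0.903% in fasted E5 knockouts.

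Whether replicate numbers pair the libraries was not tested. Same-numbered deviations correlated at -0.05, 0.06 and -0.11 in fed E3 and at 0.12, 0.08 and 0.25 in fasted E3. The range was -0.18 to 0.27 in fed E4 and -0.39 to 0.60 in fed E5. Libraries with different numbers were not compared. With a replicate block 60 members were called in fasted wild types, 68 in fasted knockouts and 0 in the E3 interaction (Rps29 adjusted p = 0.0712). The shares of all genes called with this block are not reported here. For 80 results of named members, 35 held under every alternative, and among 1573 alternative values 100 fell below the threshold (53 with 1 library left out), 28 rose past it and 2 turned sign: Rps27l in fasted knockouts, at -0.0209 without libraries with other tissues, and at -0.0778 to 0.268 as single libraries were left out, negative without the fasted E3 knockout replicate 2. Other-tissue libraries were those with a summed marker level above 300 CPM and above 10 times the median of the comparison's libraries. None passed this in the genotype comparisons of E1, fasted E3, fed E4 and fed E5 or in the E1 interaction, where the alternative was not run, although levels reached 692 CPM in fasted E3 and 253 CPM in fed E1. It was not run either for the E2 interaction, which would lose all 3 fasted wild types.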
